A study of Ciona robusta with 6 samples.

Results

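In adult hearts of Ciona robusta, a tunicate, the central cardiac tube was compared with the average of its 2 blood sinuses. The difference was the mean of the 2 cardiac tube libraries minus the average of 2 group means, that of the pharyngeal sinus (PS) and that of the stomach sinus (SS), so that each sinus weighed alike. All 793 of the 793 genes in the deposited table entered, and all 6 of the 6 libraries of the series were used, 2 of the cardiac tube and 4 of the sinuses. Levels were FPKM (fragments scaled to gene length and to library size), differences were taken on the log2(FPKM + 1) scale, and a gene was called at a limma adjusted p under 0.05 over all 793 genes.

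Every animal was an adult taken from the wild, with no genetic change and no agent in any group. Hearts were cut into the central tube, the vessel on the pharyngeal side and the vessel on the stomach side, and like pieces from several hearts were pooled for each library. Per the methods, pericardial cells were taken off, and a sinus piece kept a little of the tube's muscle beside it, so the sinus libraries are not free of myocardium. The study's summary says that experiments were repeated, but no source used here says for these libraries whether the 2 of a group came from separate pools of animals, so p-values measure only the spread between these libraries, which may be technical.

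The tunicate heart is a single muscular tube without valves or separate chambers, and it opens at each end into a blood sinus. Its beat reverses direction at intervals, so that each sinus serves in turn as inflow and as outflow. Tunicates are the closest living relatives of vertebrates, and the cardiac homeobox gene nk4 is the relative of vertebrate Nkx2-5. Homeobox, ETS and Sox transcription factors set the identity of vessels and of body regions in vertebrates, and the comparison asks which such genes separate the muscular tube from the vessels at its ends.

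Each library's adjusted values, from which the FPKM were made, added up to 1412759 to 1950483, and the read depth itself is unknown. From 782 to 787 genes had a value over 0. The FPKM summed to 777369 and 750972 in the cardiac tube and to 546774 to 601683 in the sinuses, and the median gene stood at 6.29 and 6.31 in the cardiac tube and at 6.39 to 6.45 in the sinuses on the log2(FPKM + 1) scale. A few abundant genes took more of the total in the cardiac tube, where the 10 most abundant genes held 53.0% and 54.2% of the FPKM against 45.3% to 47.3% in the sinuses.

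Among the genes called higher in the cardiac tube were the regulators nk4, irx-b and err, the filament gene if-a and the acetylcholinesterase gene ache. Among those called higher in the sinuses were the homeobox genes hox3, ipf1, six12 and isl, the ETS gene fli/erg1, the Sox gene soxF and the neuropeptide gene gnrh1, and ipf1, six12 and gnrh1 were near 0 in the tube. Of the 793 genes, 49 passed the threshold (6.18%), with 23 higher in the cardiac tube (2.9%) and 26 higher in the sinuses (3.28%). The median size of the difference was 0.76 among the 23 genes and 1.55 among the 26 on the log2 scale, against 0.25 over all genes. The genes higher in the cardiac tube were abundant, with a median of 902 FPKM over the 6 libraries and 20 of 23 above 100 FPKM, while those higher in the sinuses had a median of 94.8 FPKM and 13 of 26 above 100 FPKM, against 83.8 FPKM and 360 of 793 over all genes. Differences over 1 on the log2 scale were found for 5 of the 23 genes and 18 of the 26, against 67 of 793 over all genes.

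**Figure D1:**
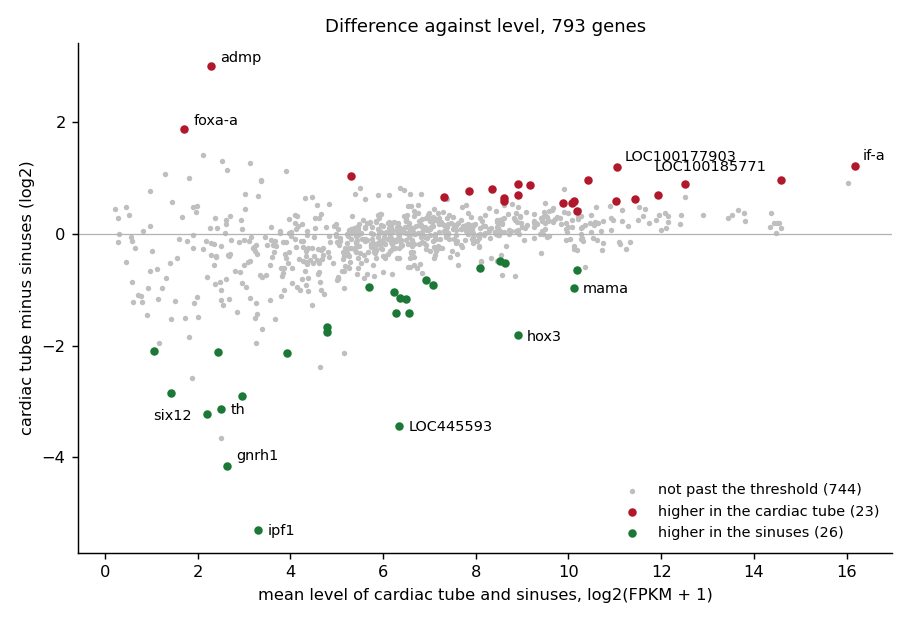
Difference between the cardiac tube and the sinuses (vertical axis, log2) against the mean level of the gene (horizontal axis, log2(FPKM + 1)), 1 point per gene. The 23 genes higher in the cardiac tube (red) lie mostly at high levels and modest differences, the 26 higher in the sinuses (green) reach -5.30 at low and middle levels, and the other 744 are grey.

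By separation of the libraries alone, both cardiac libraries lay above all 4 sinus libraries in 170 genes (21.4%) and all 4 sinus libraries lay above both cardiac libraries in 154 (19.4%). All 23 genes called higher in the cardiac tube were among the 170, and 24 of the 26 called higher in the sinuses were among the 154. The exceptions were th and pax3/7-like, in which the SS libraries overlapped the cardiac tube.

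The number of calls rests on the fit. An unadjusted p under 0.05 was reached by 210 genes (26.5%), 101 higher in the cardiac tube and 109 higher in the sinuses. With library medians set equal there were 81 calls, 55 higher in the cardiac tube and 26 higher in the sinuses. The count was 1 without cardiac tube replicate 1, 0 without cardiac tube replicate 2, 89 and 113 without PS replicate 1 or 2, and 0 without either SS library, in fits with 1 residual degree of freedom. The fits without a library kept a term for the factor of unwanted variation that the authors had removed. This factor term shifts the lone library of a group, so such values are not plain differences of the libraries left. Differences given below without a library come from these fits unless stated. In each of these fits all 49 genes kept the direction given here. With the libraries already separate in 23 and 24 of them, it could hardly change, so this is no check of the calls.

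Of the 13 cardiac regulators listed, 3 were higher in the cardiac tube (23.1%, against 2.9% of all genes), 0 were higher in the sinuses and 10 did not pass, with a median difference of 0.36 against -0.01 over all genes. The difference was positive in 10 of the 13 and negative in 3. nk4 measured 611 and 616 FPKM in the cardiac tube, 369 and 320.5 FPKM in the PS, and 398 and 445 FPKM in the SS. Both cardiac libraries lay above every sinus library, and the sinuses kept more than a trace of it, with the PS at 56.2% and the SS at 68.7% of the cardiac level. The log2 difference was 0.69 ± 0.11 (SE, limma adjusted p = 0.0304). In bulk samples of this kind, fewer cells of a type and less RNA per cell cannot be told apart.

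The Iroquois homeobox gene irx-b, whose vertebrate relatives pattern the heart chambers, measured 306 and 298 FPKM in the cardiac tube, 188 and 189.9 FPKM in the PS, and 166 and 168 FPKM in the SS. The libraries of each group lay close together and those of the tube stood apart, with a log2 difference of 0.76 ± 0.10 (limma adjusted p = 0.0208). The nuclear receptor gene err, whose mammalian relatives control genes of mitochondrial energy supply, measured 664 and 651 FPKM in the cardiac tube, 270.2 and 297 FPKM in the PS, and 459 and 423 FPKM in the SS. The PS was the lowest of the 3 parts for err, and the combined log2 difference was 0.89 ± 0.10 (limma adjusted p = 0.0190).

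Other cardiac regulators did not pass. smyd1, a muscle histone methyltransferase in vertebrates, measured 489 and 574 FPKM in the cardiac tube against 314 to 437 FPKM in the sinuses, and its groups did not overlap (log2 difference 0.54 ± 0.12, limma adjusted p = 0.0542). hand (0.36 ± 0.12), mef2 (0.18 ± 0.11) and gataa (0.05 ± 0.15) differed by less. The largest differences among those that did not pass were -0.96 ± 0.38 for irx-c, which stayed under 5 FPKM in every library, and 0.72 ± 0.29 for tbx2/3. In 7 of the 13 regulators both cardiac libraries lay above all sinus libraries, and in 0 of them was the order the opposite. Over all genes these shares were 21.4% and 19.4%. The summed level of the list was 3570 FPKM in each cardiac library, 2486 and 2342 FPKM in the PS, and 2751 and 2903 FPKM in the SS. The sum over all genes was also larger in the tube, at 777369 and 750972 FPKM against 546774 to 601683 FPKM in the sinuses. The list's sum therefore does not by itself set these genes apart.

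The most abundant transcript of the cardiac tube was if-a, an intermediate filament gene by its symbol. It measured 110117 and 118307 FPKM in the cardiac tube, 45179.7 and 39726 FPKM in the PS, and 56125 and 57531 FPKM in the SS. It alone held 14.2% and 15.8% of the FPKM in the cardiac libraries and 7.08% to 10.3% in the sinus libraries, and its log2 difference was 1.22 ± 0.23 (limma adjusted p = 0.0420). The next most abundant genes of the tube did not all follow. LOC100185771, the third, passed with 33270.5 and 35430.2 FPKM in the cardiac tube against 14685 to 19957 FPKM in the sinuses (0.97 ± 0.16, limma adjusted p = 0.0319). LOC100179388, the second, measured 90072 and 94245 FPKM against 42222 to 55016 FPKM without passing (0.91 ± 0.22, limma adjusted p = 0.0649). The ribosomal protein genes r27a and rs23, next in order, had differences of 0.19 ± 0.18 and 0.10 ± 0.19.

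Muscle genes other than if-a did not pass. Of the 3 listed, tropm1, a tropomyosin of the thin filament, measured 9102 and 8245 FPKM in the cardiac tube, 6341 and 6749 FPKM in the PS, and 7071 and 7352 FPKM in the SS (0.34 ± 0.12, limma adjusted p = 0.155). Its 2 cardiac libraries lay above all 4 sinus libraries. The actin gene act measured 19772 to 25136 FPKM over the 6 libraries with overlapping groups, and its difference of 0.02 ± 0.17 had a 95% interval of -0.38 to 0.43. The summed level of the list, most of it if-a, was 143122 and 148759 FPKM in the cardiac tube and 70447 to 87066 FPKM in the sinuses.

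**Figure D2:**
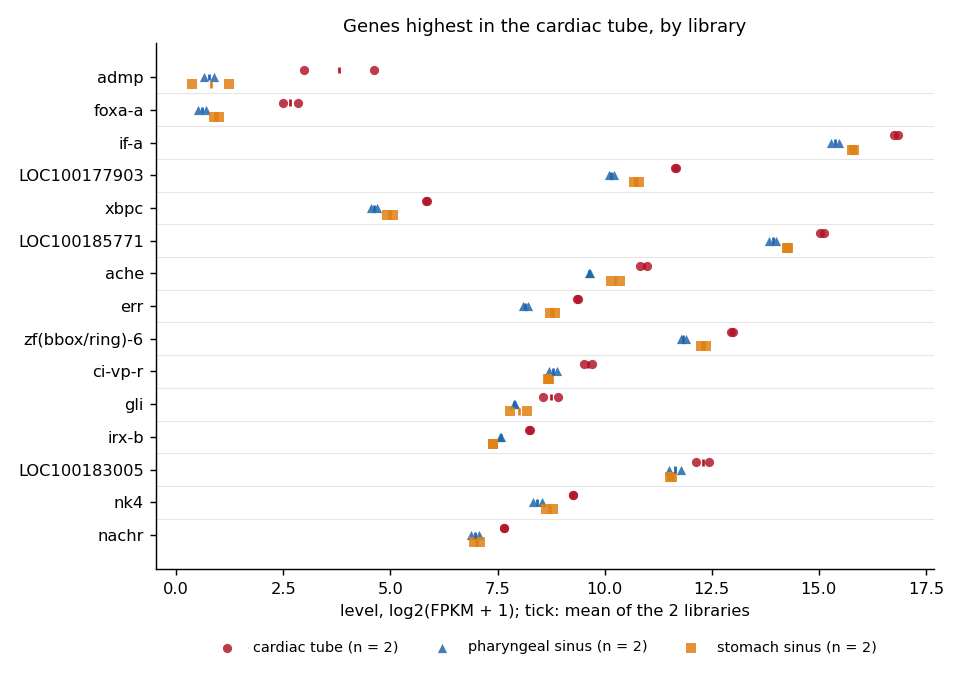
Level in each library (horizontal axis, log2(FPKM + 1)) of the 15 called genes with the largest difference toward the cardiac tube; points are libraries and ticks are means of 2. In each gene both cardiac tube libraries lie to the right of all 4 sinus libraries, from admp and foxa-a at low levels to if-a, the most abundant.

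Among the 23 genes higher in the tube, ache, nachr and ci-vp-r are linked to transmitters and peptides, and were grouped here after their values were seen. The neural list given below holds ache and ci-vp-r but not nachr. Of its 15 genes, 2 were higher in the tube and 3 in the sinuses, against 2.9% and 3.28% of all genes. ache encodes acetylcholinesterase, which breaks down acetylcholine, and measured 1819 and 2039 FPKM in the cardiac tube, 802 and 798 FPKM in the PS, and 1303 and 1130.3 FPKM in the SS. The 3 groups were separate, and the combined log2 difference was 0.97 ± 0.11 (limma adjusted p = 0.0190). nachr, a nicotinic acetylcholine receptor gene by its symbol, measured 200.5 FPKM in each cardiac library and 117 to 134 FPKM in the sinuses (0.66 ± 0.13, limma adjusted p = 0.0420). ci-vp-r, a receptor gene of the vasopressin and oxytocin family, measured 832 and 731 FPKM in the cardiac tube and 409 to 471 FPKM in the sinuses. Its PS and SS libraries were alike in range, and it passed at 0.87 ± 0.11 (limma adjusted p = 0.0190).

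Signalling genes and transcription factors made up much of the rest. gli, the transcription factor of the Hedgehog pathway, measured 480.2 and 378 FPKM in the cardiac tube, 238 and 236 FPKM in the PS, and 221 and 289 FPKM in the SS. Its cardiac libraries were unequal but both above the sinuses, with a log2 difference of 0.80 ± 0.16 (limma adjusted p = 0.0458) that was 0.51 without cardiac tube replicate 1. The forkhead gene foxp measured 501 and 453 FPKM against 294 to 348 FPKM in the sinuses (0.58 ± 0.12, limma adjusted p = 0.0484). sfrp1/5, a secreted antagonist of Wnt ligands, measured 1355 and 1328 FPKM against 944 to 1079 FPKM (0.41 ± 0.09, limma adjusted p = 0.0491). The log2 difference of sfrp1/5 was the smallest called, and its groups were still separate.

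The largest differences toward the tube belonged to 2 genes of low level. admp, a BMP-family ligand, measured 6.89 and 23.3 FPKM in the cardiac tube, 0.852 and 0.570 FPKM in the PS, and 1.36 and 0.284 FPKM in the SS. Its cardiac libraries differed widely, and the log2 difference was 3.01 ± 0.56 (limma adjusted p = 0.0420). Without cardiac tube replicate 2 it was 1.86, and 2.20 when the factor term was left out as well. foxa-a, a forkhead gene that marks endoderm and notochord in chordate embryos, measured 6.11 and 4.58 FPKM against 0.417 to 0.995 FPKM in the sinuses. Its groups did not overlap (1.89 ± 0.36, limma adjusted p = 0.0420), yet it was a minor transcript in the tube, at rank 701 of 793 by mean cardiac FPKM. With a pseudocount of 10 the differences of admp and foxa-a were 1.14 and 0.52 and did not pass.

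The remaining 10 genes higher in the cardiac tube had log2 differences of 0.55 to 1.20. LOC100177903 had the smallest adjusted p of the 23, with 3217 and 3228 FPKM in the cardiac tube, 1102 and 1182 FPKM in the PS, and 1789 and 1639 FPKM in the SS (1.20 ± 0.10, limma adjusted p = 0.00662). The zinc finger gene zf(bbox/ring)-6 was abundant, at 8128 and 7893 FPKM against 3502 to 5249 FPKM (0.89 ± 0.11, limma adjusted p = 0.0190). gpx7, a glutathione peroxidase gene, measured 516 and 463 FPKM against 298 to 346 FPKM (0.63 ± 0.11, limma adjusted p = 0.0319). The glutathione peroxidase genes did not move together, since gpx_b was higher in the sinuses, at 423 to 521 FPKM against 340.1 and 317 FPKM (log2 difference -0.53 ± 0.10, limma adjusted p = 0.0395). The others were xbpc, LOC100183005, meta3, LOC494354, rngi, zf(mynd)-12 and ci-dril1/2, an ARID-domain factor by its name. The log2 differences of LOC100183005 and meta3 were 0.69 and 0.62, and 0.44 and 0.41 without cardiac tube replicate 1.

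In these 23 genes the PS mean lay below the SS mean in 18, against 399 of 793 over all genes. The level in the PS was 4.71% to 71.1% of that in the cardiac tube, with a median of 56.6%, and the level in the SS was 5.43% to 79.8%, with a median of 63.1%. Against the PS alone 18 of the 23 passed and against the SS alone 3 did, while over all genes 59 and 13 passed. None of the 23 passed the test of the PS against the SS, in which 10 of 793 genes passed (1.26%). Its 95% interval stayed within 1 log2 unit on either side of 0 in 20 of the 23 and in 555 of 793 genes.

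Hox and ParaHox genes are described first on the sinus side. These homeobox genes assign position along the body axis and the gut. Of 6 listed, 2 were higher in the sinuses (33.3%, against 3.28% of all genes), 0 in the cardiac tube and 4 did not pass, with a median difference of -1.23. hox3 measured 233 and 280.2 FPKM in the cardiac tube, 1048 and 874 FPKM in the PS, and 879 and 831 FPKM in the SS. All 4 sinus libraries stood far above both cardiac libraries and close to each other, and the log2 difference of -1.82 ± 0.13 (limma adjusted p = 0.00606) had the smallest adjusted p of all genes. Between the sinuses hox3 differed by 0.16, with a 95% interval of -0.20 to 0.53.

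ipf1, the ParaHox gene related to vertebrate Pdx1 of pancreas and duodenum, measured 0 and 1.51 FPKM in the cardiac tube, 123 and 28.5 FPKM in the PS, and 78.5 and 50.7 FPKM in the SS. It was all but absent from the tube and the sinus libraries were uneven, with a log2 difference of -5.30 ± 0.66 (limma adjusted p = 0.0190), the largest of the 793. With a pseudocount of 10 it was -2.76. The difference between the sinuses was -0.08 with a 95% interval of -1.95 to 1.79, too wide to call them alike. hox4 measured 414 and 298 FPKM in the cardiac tube and 438 to 749 FPKM in the sinuses without passing (-0.76 ± 0.18, limma adjusted p = 0.0609), evx-a had a difference of -1.70 ± 0.46 and hox1 of 1.07 ± 0.63. hox5 lay at 457 and 475 FPKM against 268 to 483 FPKM, so the list did not shift as a block.

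The ETS, sine oculis and LIM families followed. Of 12 genes listed, 3 were higher in the sinuses (25%, against 3.28% of all genes), 0 in the cardiac tube and 9 did not pass. The symbol pattern also took in klf2, which is of none of these families. It missed the ETS genes ese, erm/er81, gabpalpha and spi/pu.1, which did not pass, so the share is not that of whole families. The median difference was -0.22. six12, a homeobox gene of the sine oculis class, measured 0.275 and 0.779 FPKM in the cardiac tube, 22.6 and 11.4 FPKM in the PS, and 11.9 and 9.53 FPKM in the SS. The separation was complete (-3.23 ± 0.40, limma adjusted p = 0.0190), with -1.15 at a pseudocount of 10. isl, the LIM homeobox gene whose vertebrate relative Isl1 marks cardiac progenitors, measured 70.0 and 50.8 FPKM in the cardiac tube, 133 and 127 FPKM in the PS, and 115 and 171 FPKM in the SS. It passed in the combined comparison (-1.17 ± 0.22, limma adjusted p = 0.0420), while its adjusted p was 0.0583 against the PS alone and 0.0824 against the SS alone. Those comparisons share the cardiac libraries, and 59 genes (7.44%) and 13 genes (1.64%) passed in them.

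fli/erg1, an ETS factor of a class that acts in vertebrate endothelium, measured 34.6 and 38.5 FPKM in the cardiac tube, 80.4 and 72.2 FPKM in the PS, and 68.4 and 66.1 FPKM in the SS (-0.95 ± 0.18, limma adjusted p = 0.0413). The difference between its sinuses was 0.18, with a 95% interval of -0.32 to 0.67. fli/erg4, of the same class, went the other way without passing, with the PS at 78.1% and the SS at 77.1% of the cardiac level. ets/pointed1 measured 12 and 12.2 FPKM against 21.7 to 28.7 FPKM, with no overlap but without passing (-1.01 ± 0.24, limma adjusted p = 0.0626). klf2, a relative of the flow-responsive factor of vertebrate endothelium, was not higher in the sinuses, at 1857 and 1865 FPKM in the cardiac tube and 1439 to 1742 FPKM in the sinuses (0.23 ± 0.09, limma adjusted p = 0.166).

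A pair of further factors whose vertebrate relatives act in endothelium was picked out after the values were seen. soxF, of the class of vertebrate Sox7, Sox17 and Sox18, measured 84.4 and 95.6 FPKM in the cardiac tube, 178 and 183 FPKM in the PS, and 155 and 129 FPKM in the SS (-0.83 ± 0.14, limma adjusted p = 0.0344). The homeobox gene hex measured 99.4 and 96.7 FPKM in the cardiac tube, 208 and 188 FPKM in the PS, and 166 and 185 FPKM in the SS (-0.92 ± 0.13, limma adjusted p = 0.0208). In each gene all 4 sinus libraries lay above both cardiac libraries. Of the 5 Sox genes listed, soxF was the 1 that passed (20%, against 6.18% of all genes). soxh measured 23.2 and 31.9 FPKM in the SS against 3.14 to 4.70 FPKM in the other 4 libraries, and its combined difference was -1.39 ± 0.33 (limma adjusted p = 0.0613).

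**Figure D3:**
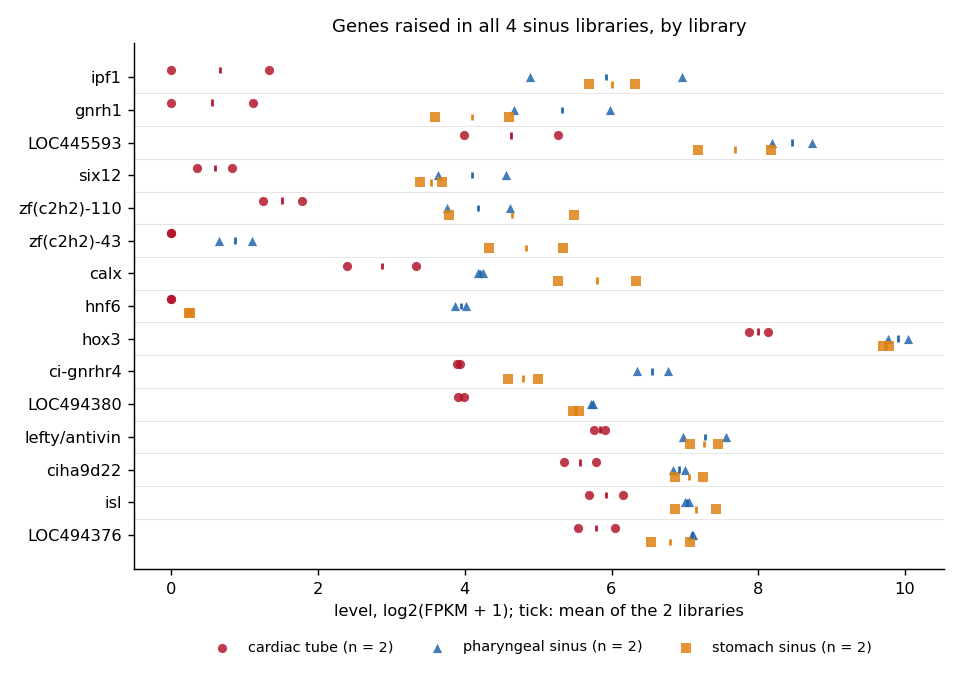
Level in each library (horizontal axis, log2(FPKM + 1)) of the 15 genes with the largest difference toward the sinuses among those called and raised in all 4 sinus libraries; points are libraries and ticks are means of 2. The PS and SS points of hox3, isl and lefty/antivin lie together, those of hnf6 and zf(c2h2)-43 lie far apart, and cardiac tube points lie at or near 0 for ipf1, gnrh1, six12, hnf6 and zf(c2h2)-43.

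Neural and neuropeptide genes moved in either direction. Of 15 listed, 3 were higher in the sinuses, 2 were higher in the cardiac tube (ache and ci-vp-r, above) and 10 did not pass, so that 33.3% were called against 6.18% of all genes, with a median of -1.0. gnrh1, which encodes gonadotropin-releasing hormone peptides, measured 1.17 and 0 FPKM in the cardiac tube, 24.4 and 62.3 FPKM in the PS, and 11.1 and 23.3 FPKM in the SS. Every sinus library was above the tube (-4.15 ± 0.56, limma adjusted p = 0.0208), with -1.78 at a pseudocount of 10. The receptor gene ci-gnrhr4 measured 14.3 and 13.9 FPKM in the cardiac tube, 108 and 80.2 FPKM in the PS, and 23.0 and 31.0 FPKM in the SS. It too was above the tube in each sinus library, most in the PS (-1.76 ± 0.25, limma adjusted p = 0.0231). Its difference between the sinuses was 1.76 ± 0.29 and did not pass (limma adjusted p = 0.0599). gnrhr2, another receptor gene, measured 1.52 and 0.360 FPKM against 2.88 to 8.68 FPKM without passing (-1.85 ± 0.52, limma adjusted p = 0.0867).

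Secreted ligands and inhibitors were called on both sides. Of 22 TGF-beta pathway genes, 2 were higher in the sinuses, 1 (admp) in the cardiac tube and 19 did not pass, with a median of -0.11. The share called was 13.6%, against 6.18% of all genes. lefty/antivin, an inhibitor of Nodal signalling, measured 53.5 and 59.0 FPKM in the cardiac tube, 188 and 125 FPKM in the PS, and 133 and 174 FPKM in the SS (-1.43 ± 0.22, limma adjusted p = 0.0296). Its difference between the sinuses was 0.01, with a 95% interval of -0.61 to 0.63. The ligand gene tgfbeta2 measured 56.7 and 46.7 FPKM in the cardiac tube, 129 and 125 FPKM in the PS, and 79.0 and 101 FPKM in the SS (-1.03 ± 0.18, limma adjusted p = 0.0344). All 4 sinus libraries were above the tube, those of the PS by more.

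Of 15 Wnt pathway genes, 1 was higher in the sinuses, 1 in the cardiac tube and 13 did not pass, with a median of -0.01. The share called was 13.3%, against 6.18% of all genes. The called genes were secreted frizzled-related antagonists with opposite directions. sfrp3/4-b measured 219.8 and 219 FPKM in the cardiac tube, 374 and 356 FPKM in the PS, and 304 and 315 FPKM in the SS (-0.61 ± 0.10, limma adjusted p = 0.0304), against sfrp1/5, which was higher in the tube. The ligand gene wnt5 lay just outside the threshold, at 259 and 335 FPKM in the cardiac tube and 404 to 635 FPKM in the sinuses (-0.73 ± 0.16, limma adjusted p = 0.0533).

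In 4 of the 26 genes the average over the sinuses hid a difference between them, by the test of the PS against the SS. Over all genes 10 of 793 passed that test (1.26%). th, which encodes tyrosine hydroxylase, the rate-limiting enzyme of dopamine synthesis, measured 0.423 and 1.60 FPKM in the cardiac tube, 222 and 88.2 FPKM in the PS, and 1.20 and 0.838 FPKM in the SS. The SS was level with the tube, so the combined log2 difference of -3.13 ± 0.49 (limma adjusted p = 0.0304) came from the PS. pax3/7-like, a paired-box gene, had the same form, at 1.27 and 2 FPKM in the cardiac tube, 66.3 and 40.4 FPKM in the PS, and 1.60 and 1.26 FPKM in the SS (-2.11 ± 0.36, limma adjusted p = 0.0340). With a pseudocount of 10 the differences of th and pax3/7-like were -1.89 and -1.19.

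hnf6, a onecut homeobox gene of liver and pancreas in vertebrates, was listed at 0 in both cardiac libraries, at 15.2 and 13.7 FPKM in the PS, and at 0.188 and 0.198 FPKM in the SS. It counts as raised in all 4 sinus libraries only through those last values. zf(c2h2)-43, a C2H2 zinc finger gene, was the opposite, listed at 0 in both cardiac libraries, at 1.14 and 0.571 FPKM in the PS, and at 19.0 and 39.3 FPKM in the SS. Their limma adjusted p values in the combined comparison were 0.0319 and 0.0256. With a pseudocount of 10 hnf6 still passed and zf(c2h2)-43 did not.

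In the other genes higher in the sinuses the mean of either sinus was above that of the tube. This does not mean that each passed against each sinus. Of all 26 genes, 22 passed against the PS alone and 6 against the SS alone, while over all genes 59 and 13 passed. zf(c2h2)-110 measured 2.43 and 1.38 FPKM in the cardiac tube and 12.5 to 43.8 FPKM in the sinuses (-2.90 ± 0.56, limma adjusted p = 0.0430). calx measured 9.07 and 4.28 FPKM in the cardiac tube, 17.9 and 17.1 FPKM in the PS, and 37.7 and 79.9 FPKM in the SS. Its difference was -2.14 ± 0.43 (limma adjusted p = 0.0457). Without cardiac tube replicate 2 it was -1.37, and -1.68 when the factor term was left out as well. With a pseudocount of 10 neither gene passed, at -1.38 and -1.36. LOC445593 had a high level in the sinuses, at 292 and 425 FPKM in the PS and 144 and 289 FPKM in the SS, against 37.7 and 14.9 FPKM in the tube (-3.44 ± 0.44, limma adjusted p = 0.0190). LOC494380 was the most even of this group, with 14.8 and 14.0 FPKM in the tube and 43.3 to 52.7 FPKM in the sinuses (-1.68 ± 0.21, limma adjusted p = 0.0190). The abundant gene mama measured 863 and 727 FPKM against 1364 to 1878 FPKM (-0.97 ± 0.16, limma adjusted p = 0.0338). The remaining genes were ciha9d22 (-1.42), LOC494376 (-1.16, and -0.73 without cardiac tube replicate 2), not2 (-0.64) and LOC100182205 (-0.48).

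**Figure D4:**
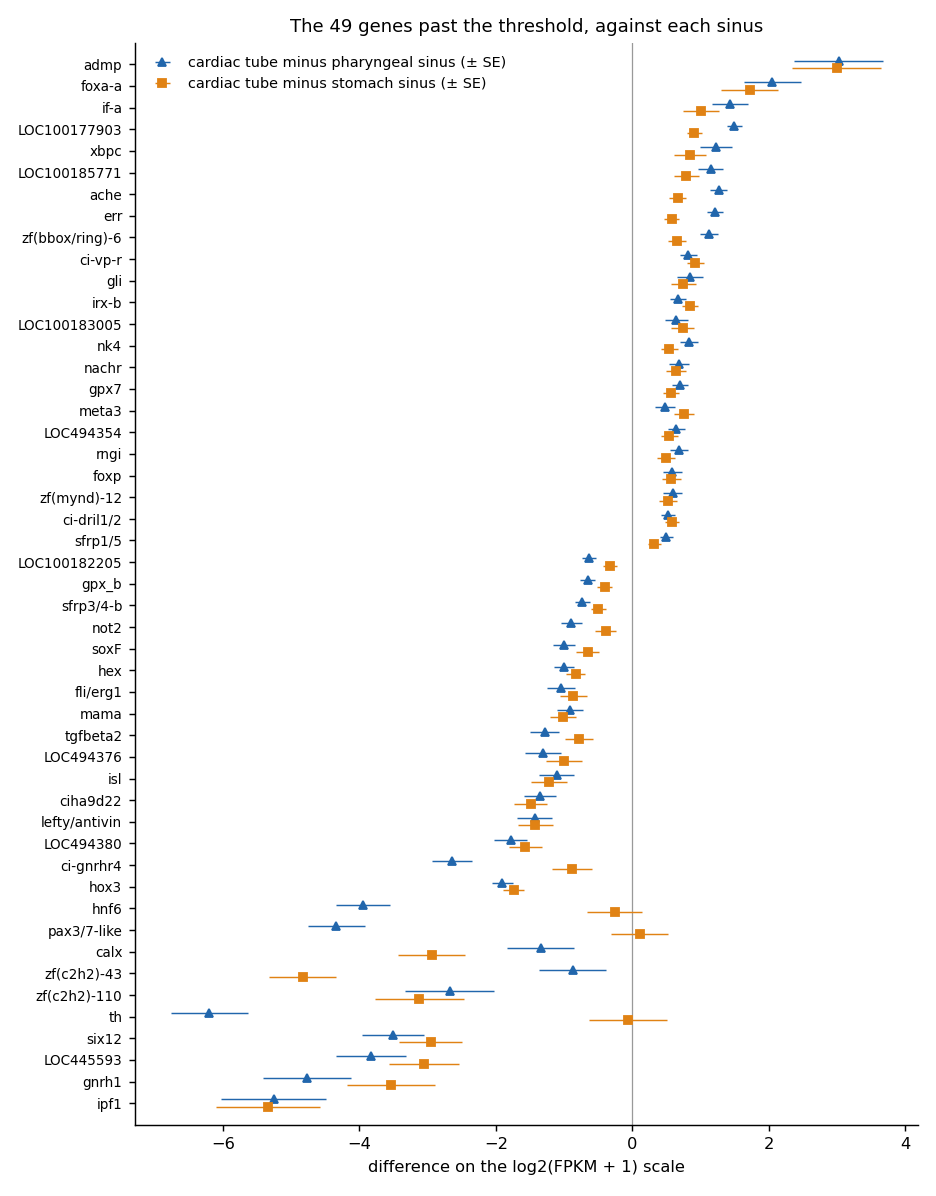
Log2 difference of the cardiac tube minus the PS (triangles) and minus the SS (squares), with standard errors, for the 49 genes past the threshold. The 2 values share the cardiac libraries; they lie close for hox3, six12, isl, irx-b and foxp, and far apart for th (-6.20 and -0.06), pax3/7-like (-4.34 and 0.11), hnf6 and zf(c2h2)-43.

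The PS mean lay above the SS mean in 20 of the 26 genes higher in the sinuses, against 393 of 793 over all genes. In 14 of the 26, the PS minus SS difference had a 95% interval within 1 log2 unit of 0 on either side, against 555 of 793 over all genes. For the others of the 26, apart from the 4 that passed the test between the sinuses, these libraries could not show whether the sinuses are alike. Near the threshold, the last genes inside were meta3, LOC100183005, not2, zf(mynd)-12 and sfrp1/5, with adjusted p values of 0.0484 to 0.0491. Just outside lay wnt5 (0.0533), then, at 0.0542 each, noto8, srebp, yb1/2/3 and iqgap, with smyd1 at the same value.

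The other lists are given by the share of their genes called in either direction, which was 6.18% over all genes. Of 13 Fox genes, foxa-a and foxp were higher in the cardiac tube and 11 did not pass (15.4% called, median -0.07). Of 4 Pax genes, pax3/7-like was the 1 called (25%, median 0.07). Of 14 nuclear receptor genes err alone was called (7.14%, median 0.14), and fxr, at 128 and 114 FPKM in the tube and 66.7 to 81.2 FPKM in the sinuses, came closest among the rest (0.72 ± 0.17, limma adjusted p = 0.0589). Of 6 Notch and Hedgehog genes gli was called (16.7%, median -0.03). The symbol pattern missed genes such as smoothened, deltex, neuralized-a, neuralized-b, e(spl)/hairy-a and e(spl)/hairy-b. These did not pass, so the share is not that of the whole pathways. In the list delta-like, a Notch ligand gene, measured 1.31 and 1.55 FPKM against 4.64 to 7.45 FPKM (-1.48 ± 0.35, limma adjusted p = 0.0612). The list of FGF, ephrin and receptor tyrosine kinase members held 18 genes, of which 0 were called (median 0.17), with fgf-na1 at 0.78 ± 0.19 (limma adjusted p = 0.0652). The C2H2 zinc finger list held 2 genes higher in the sinuses among 67 (2.99%, median -0.10), and the other zinc finger list held 2 higher in the cardiac tube among 74 (2.70%, median 0.06). The matrix list held 1 gene, a collagen XVIII gene, which did not pass (0.37 ± 0.12). Of the 471 genes in no list, 10 were called in each direction (4.25% in all).

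**Figure D5:**
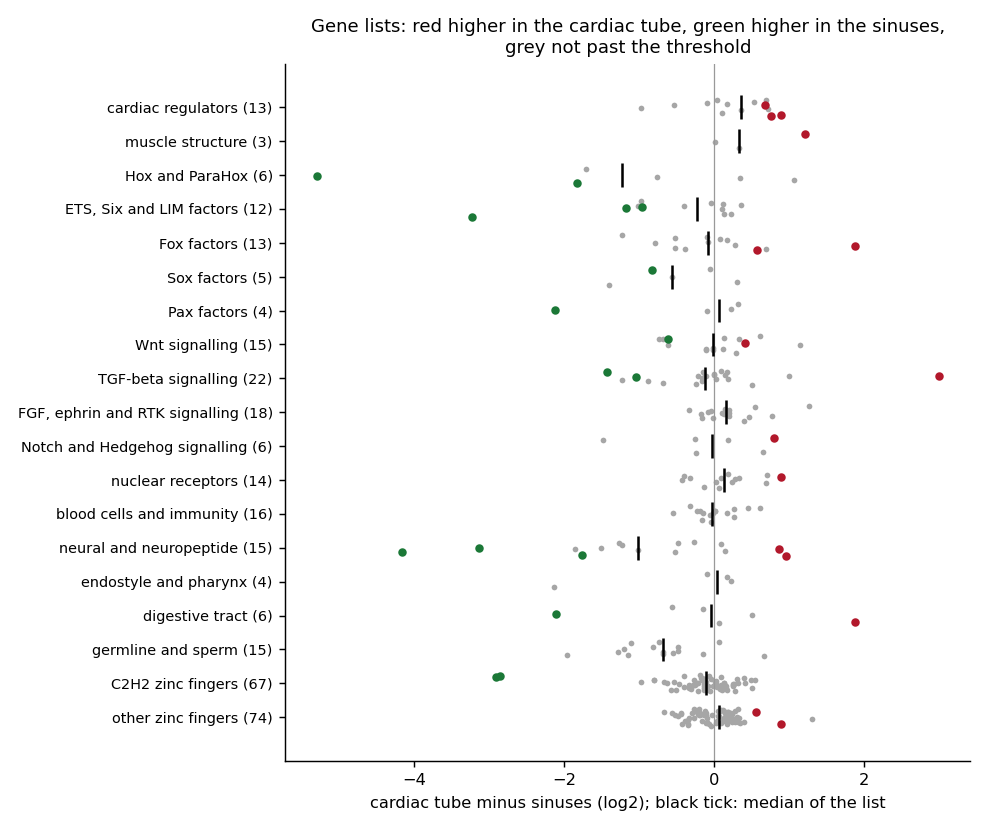
Log2 difference (horizontal axis, cardiac tube minus sinuses) of every gene in 19 gene lists, with the number of genes in brackets and the list's median as a black tick. Red and green points passed the threshold. The medians lie at 0.36 for cardiac regulators, -1.23 for Hox and ParaHox genes and -1.0 for neural genes, and near 0 for most other lists.

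Markers of neighbouring tissues were read beside the sinus genes, since a dissected piece can hold them. Of 4 endostyle and pharynx genes 0 were called (median 0.05), and their summed level was 467 and 463 FPKM in the cardiac tube, 564 and 1422 FPKM in the PS, and 421 and 412 FPKM in the SS. The gene named endostyle-specific, after the mucus-secreting groove of the pharynx, measured 27.8 and 9.21 FPKM in the cardiac tube, 128 and 1010.2 FPKM in the PS, and 21.5 and 9.94 FPKM in the SS. This marker was high in the PS, as were th, pax3/7-like and hnf6, and its part in those results was not tested. The order of replicates within the PS was not compared, since the authors' removal of a factor of unwanted variation partly sets it.

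Of 6 digestive tract genes, foxa-a was higher in the cardiac tube, hnf6 was higher in the sinuses and 4 did not pass (median -0.03). The share called was 33.3%, against 6.18% of all genes. The sum was 298 to 323 FPKM in the tube and 317 to 389 FPKM in the sinuses. gh18 and ciap had differences of 0.51 ± 0.48 and -0.56 ± 0.17. Of 15 germline and sperm genes 0 were called, 13 of them with a negative difference (median -0.68), and the sum was 388 and 353 FPKM in the cardiac tube, 399.7 and 327 FPKM in the PS, and 624 and 1134 FPKM in the SS. dnal1, an axonemal dynein light chain gene, measured 3.44 to 8.65 FPKM in the tube and the PS and 31.7 and 77.2 FPKM in the SS. The genes zf(c2h2)-43, calx and soxh were likewise highest in the SS, and the part of sperm transcripts in them was not tested. The symbol pattern for this list also took in dickkopf, a Wnt antagonist.

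Of 16 blood cell and immunity genes 0 were called (median -0.02), with sums of 15468 and 14674 FPKM in the cardiac tube, 19690.4 and 16667 FPKM in the PS, and 11583 and 13817 FPKM in the SS. The cardiac tube lay between the sinuses, with the PS above it and the SS below. No gene of any of these marker lists was at 0 in all 6 libraries.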

How the data were processed

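RNA-seq was made from pooled pieces of adult Ciona robusta hearts, with 2 libraries for each of the cardiac tube, the pharyngeal and the stomach blood sinus. Per the labels and methods, the authors trimmed reads with cutadapt, aligned them with STAR, counted them with featureCounts of Subread and used DESeq2, after taking out 1 factor of unwanted variation (RUVs). The methods name tool versions under the zebrafish part of the study and refer the Ciona libraries to the same procedure. The deposited table lists 793 genes, and other genes were not analysed here. The authors made the deposited FPKM from values so adjusted, with size factors of 0.975 to 1.03, and the FPKM imply a whole gene length, within 0.01, for 100% of genes. Their library size refers to the listed genes, so they are not on the scale of a whole transcriptome. The deposited columns headed raw were treated as a score. They are whole numbers from which the factor had been removed: over the 179 genes with a mean above 1000, replicate differences had singular values of 2.43, 1.79 and 0.00279, so 1 weighted sum was at most 0.000688. Count models were therefore not used. The authors' deposited log2 fold changes, p-values and adjusted p-values of each comparison were not used.

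The limma package (3.58.1, under R 4.3.3) fitted the contrast to log2(FPKM + 1), the pseudocount being 1, with 3 groups and a term for the removed factor, moderated variances with a trend on the level, and no filter. This left 2 residual and 4.02 prior degrees of freedom, and the median standard error was 0.181. p-values are two-sided and Benjamini-Hochberg adjusted over 793 genes, with calls under 0.05. The single-sinus and PS against SS contrasts came from the same fit. Symbols are those of the table, and 0 matched the reference table, so no coordinates or sequences are printed and near-identical copies could not be checked. Since the depth is unknown, counting intervals are not given.

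Named genes were the 15 called genes with the largest difference in each direction whose libraries did not overlap, the 5 most abundant in the tube, called members and up to 2 others of each of 20 symbol lists, the 10 genes nearest the threshold and those called in the combined contrast alone. Genes named outside this rule (such as smyd1, hand, mef2, gataa, klf2, hox4, hox5 and gpx7) were chosen after their values were seen. Members and lists were chosen with earlier results of these data known. The symbol patterns missed some genes of the families named, so the shares called hold for the lists and not for whole families. Alternatives were other pseudocounts, a filter, the adjusted values, equal medians, no term, no trend, replicate blocks, 1 pooled sinus group and leaving out each library.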

Additional observations from a re-analysis of the deposited data

Results flagged for a closer look

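The test of the pharyngeal against the stomach sinus passed the threshold (limma, adjusted over 793 genes) in 4 of the 26 genes called higher in the sinuses. Over all genes it passed in 10 of 793 (1.26%). In those 4 genes the difference from the cardiac tube was not the same on the 2 sides. th was higher in the PS than in the SS by 6.13 on the log2 scale (adjusted p = 0.0107), pax3/7-like by 4.44 (adjusted p = 0.0107) and hnf6 by 3.69 (adjusted p = 0.0181). zf(c2h2)-43 had a log2 difference of -3.95 between the PS and the SS (adjusted p = 0.0299). Groups of 2 libraries were too small for a search for single outlying libraries.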

How the results depend on the processing

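The 49 calls (23 higher in the cardiac tube, 26 higher in the sinuses) kept their direction in every alternative in which they were fitted. Libraries were already separate in 23 and 24 of them, so the direction could hardly change and is no check of the calls. The number of calls depended on the fit. It was 41 (16 and 25) and 34 (13 and 21) with pseudocounts of 0.1 and 10, 72 (34 and 38) with genes under a mean of 5 FPKM left out, 43 (23 and 20) on the adjusted values, 81 (55 and 26) with library medians set equal, 175 (85 and 90) with no factor term, 1 (0 and 1, hnf6) without the trend and 1 (0 and 1, hox3) with the 4 sinus libraries as 1 group. Without the trend 178 genes and with 1 sinus group 170 genes had an unadjusted p under 0.05.

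The replicate number as a block gave 49 calls (23 and 26) in place of the term and 0 (0 and 0) when added to it, with 1 residual degree of freedom and 171 genes at an unadjusted p under 0.05. The removed factor lies almost along the replicate number (cosine 0.997). Its removal by itself makes replicate differences correlate negatively between the groups (-0.460, -0.535 and -0.457 across genes), so these values cannot show whether same-numbered libraries were paired. The labels give them no shared animal, day or batch.

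With each library left out in turn and the term kept, the count ranged from 0 to 113, from 0 to 43 higher in the cardiac tube and from 0 to 73 higher in the sinuses. Leaving out a library and the term together gave 2 (1 and 1) without either cardiac library, 97 (50 and 47) and 105 (47 and 58) without PS replicate 1 or 2, and 122 (58 and 64) and 133 (68 and 65) without SS replicate 1 or 2. Fits with a lone library assume that it varies like the other groups. hox3 and LOC100177903 were called in all 6 of these fits. The cause of the changes in count was not tested.

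A few genes that did not pass changed sign in some fits. With a library left out and the term kept, act ranged from -0.060 to 0.11, rs23 from -0.064 to 0.26 and zf(ring)-35 from -0.16 to 2.78. The sign of zf(ring)-35 changed only without cardiac tube replicate 2 and with the term kept. It did not change when the term was left out as well. Without the term as well, act was -0.030 without cardiac tube replicate 1 and -0.018 without SS replicate 1, and rs23 was -0.00085 without cardiac tube replicate 1. Depth is unknown, so which low values are limited by it could not be checked.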
